A study of Mus musculus with 28 samples.

Results

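Ribosome footprints of MN1 cells that expressed hTDP-43 A315T were compared with those of MN1 cells that expressed GFP. The comparison rests on 4 of the 28 libraries of the series, 2 for each group, and was carried through all genes rather than a chosen set. MN1 is a clonal mouse line made by fusing spinal motor neurons with neuroblastoma cells, so it models a motor neuron only in part. The cells were transiently transfected with a plasmid for GFP or for human TDP-43 with the A315T substitution, a change found in some patients with amyotrophic lateral sclerosis, in which TDP-43 carried a FLAG and a V5 tag and was driven by the CMV promoter. The cells of both groups kept their own mouse Tardbp gene. Cultures transfected with unmutated human TDP-43 (hTDP-43) were prepared on the same dates and are used here only for reference. Before lysis the cells of all groups were kept in cycloheximide at 100 µg/mL for 3 min, an inhibitor that holds ribosomes on their mRNA. Total mRNA of the same cultures was sequenced after poly(A) selection. Libraries of replicate 1 and of replicate 2 came from cultures of different dates, and each date held a culture of every group.

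TDP-43 is an RNA-binding protein that resides mainly in the nucleus, binds UG-rich sequence, and acts in splicing, in 3′ end choice, in transport and in the stability of RNA. It also limits its own mRNA. In ribosome profiling, mRNA that is not covered by a ribosome is digested and the protected fragments are sequenced, so that the number of footprints on a gene depends on how much of its mRNA there is and on how densely ribosomes occupy it. Fragments of small structured RNAs that withstand the nuclease or travel with ribosomes can enter the same libraries. As whole cultures were lysed after transient transfection, a moderate difference in every cell and a larger one in part of the cells cannot be told apart, nor can fewer cells of a type and less RNA per cell.

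Reads assigned to genes numbered 940822 and 849125 in the GFP footprint libraries and 1219222 and 521904 in the A315T libraries (replicates 1 and 2), so that 3 counts stood for 2.46 to 5.75 CPM, the counts scaled to library size, and lower levels could not be measured. The date dominated the variation between these libraries: among the 2000 most variable genes the first principal component held 52.95% of the variance, of which the replicate number accounted for 96.84% and the transfected protein for 1.562%. Each gene was therefore compared within dates. Summed markers of motor neuron identity lay between 601 and 874 CPM, most of it from Ret at 495 to 766 CPM. Ret counts among the sympathoadrenal markers too. Isl1 and Slc18a3 were also detected, while Chat and Mnx1 were at or near 0 and Olig2 was at 0 in all 4 libraries. Neuroblastoma and sympathoadrenal markers summed to 4150 to 4610 CPM, and markers of astrocytes, oligodendrocytes, microglia and fibroblasts to at most 42.0 CPM. Skeletal muscle markers summed to 53.5 to 68.7 CPM, most of it from Myh3. None of the marker lists held a gene that passed the test.

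The strongest decrease in footprint counts fell on a family of small RNAs rather than on mRNA. Reads that aligned to annotated non-coding RNA had been removed before counting. Counts on genes of such RNAs, here and below, are thus the reads left after that removal. Whether the removal acted alike on all libraries was not tested. U5 is the small nuclear RNA of the spliceosome whose conserved loop holds the ends of the exons that are being joined, and the mouse genome carries several copies of its gene. Of 1383 annotated snRNA genes, 9 contained the conserved U5 loop, and 5 of these had enough footprint counts to be tested. The copies, each 116 bases long, were 90.5 to 97.4% identical to Gm25313. Their last 30 bases are shown from GRCm38 because they tell the copies apart, and capitals mark the 18 positions that were not the same in all 5 copies. Positions were compared without gaps, and Gm22265 is offset by a single base there, so some capitals mark that offset.
Gm25313 (chr9:65196572-65196601, minus strand): aAtttttTGAgGCCTTGTTTCGGcaAgGct
Gm23143 (chr4:117202614-117202643, plus strand): aAtttttTGAgGTCCTGCCTACCcaGgAct
Rnu5g (chr9:65201726-65201755, minus strand): aAtttttTGAgGCCTTGTCTTGAcaAgGct
Gm23287 (chr4:117210930-117210959, plus strand): aAtttttTGAgGTCTTGTGCTTAcaAgAct
Gm22265 (chr1:192745657-192745686, plus strand): aTtttttGAGgTCTTGCTTCTTGcaAgGct
Reads from the shared part cannot be assigned to a single copy with certainty, so the copies are not independent measurements. Rnu5g is named as a U5 gene in the annotation, whereas the other 4 were grouped with it by sequence after their values had been seen.

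Across all genes the change was small in extent. Of 8659 genes tested, 54 (0.624%) passed an adjusted p of 0.05 in edgeR's quasi-likelihood test with Benjamini-Hochberg adjustment, 39 (0.45%) of them higher and 15 (0.173%) lower with A315T, while 734 genes (8.48%) had an unadjusted p below 0.05. The fit left 1 residual degree of freedom and leaned on the spread shared among genes. The standard errors (SE) given below therefore do not measure how far the dates differed for a single gene. For Camta1, given below with an SE of 0.21, the within-date log2 differences were 0.99 and 2.66 (replicates 1 and 2). The calls also depended on the comparison within dates: without the replicate block a single gene, Gm13886, passed (edgeR adjusted p = 0.00926). DESeq2 with the block called 14 of the same 54 genes. When each of the 4 libraries was left out in turn, 12 of the 54 genes were called every time, 9 higher and 3 lower. These fits held all 3 MN1 groups, and with no library left out that fit called 29 of the 54 genes. Each omission left a group with 1 library, whose own spread cannot be measured and was assumed to be like that of the others. Adjusted p could become smaller when a library was left out, so a call that was kept is no measure of stability, here and below. The other 25 failed there with every library kept, so their losses without a library cannot be put down to that library. They include Kl, Rnf157, Arpp21, Cybb, Rny1, Lars2, Gm37194, Dact3, Net1, Sspo, Ttyh1 and mt-Cytb. Crx, E2f5, Rpl7, Ptma, Ssb, Gm22265, Gm23935, CT010467.1 and ENSMUSG00000089855 are also among them. Among the 54 genes, 31 changed at least 2-fold, 25 upward and 6 downward. All 4 libraries were separated by group in 29 of the 54 genes (53.7%), against 30.8% of all genes tested, and in the remaining 25 the values of the groups overlapped across dates. Protein-coding genes made up 29 of the 39 higher and 6 of the 15 lower genes, although 8545 of the 8659 genes tested were protein-coding. The other changed genes were small nuclear, Y, 7SL-like and RNase P RNAs, loci annotated as miRNA or rRNA, a processed pseudogene, an antisense RNA and unclassified transcripts.

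**Figure D1:**
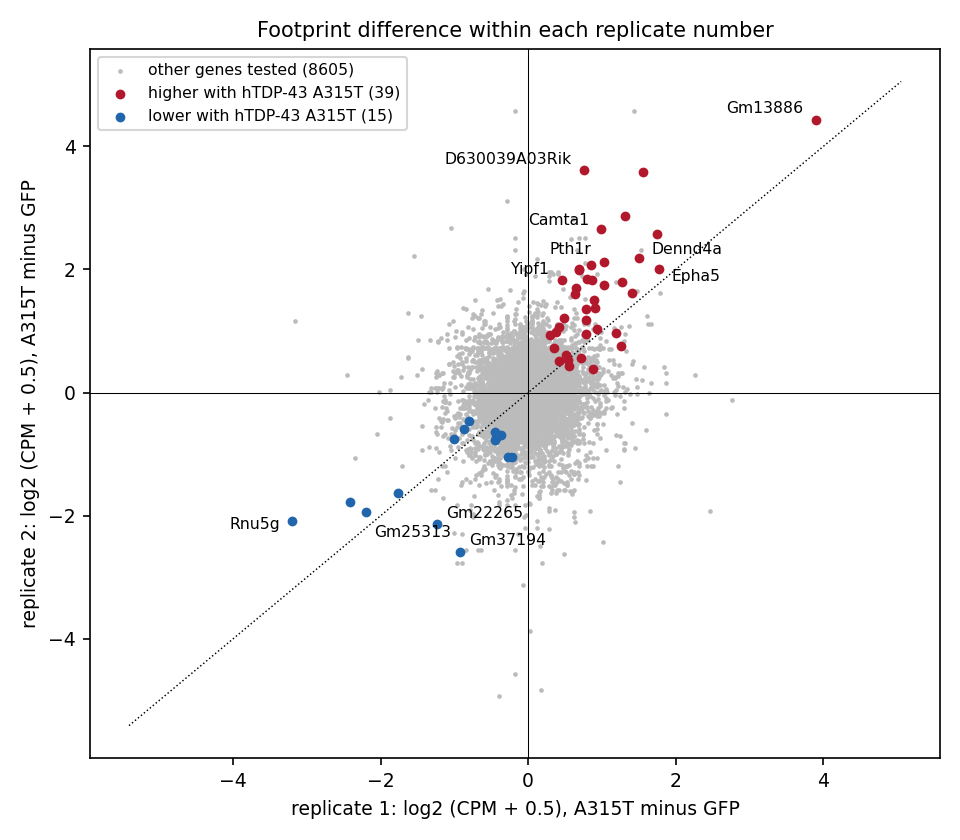
Difference between A315T and GFP in footprints (log2 of CPM + 0.5) for replicate 1 (horizontal axis) and replicate 2 (vertical axis), with each point a gene and the dotted line marking equal differences. The 39 genes that were higher (red) lie in the upper right and the 15 that were lower (blue) in the lower left, and most red points lie above the line, where the difference was larger in replicate 2.

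Gm25313, the most abundant U5 copy, stood at 357 and 2269 CPM with GFP and at 77.2 and 589 CPM with A315T (replicates 1 and 2). It was lower with A315T on both dates, although the A315T library of replicate 2 exceeded the GFP library of replicate 1. The fitted decrease was 4.05-fold (log2 fold change -2.02 ± 0.11 (SE), edgeR adjusted p = 4.38e-10). Gm23143 gave 217 and 809 CPM with GFP and 40.4 and 237 CPM with A315T, again with overlap across dates and again lower on each (log2 fold change -1.98 ± 0.14, edgeR adjusted p = 1.36e-08). Rnu5g gave 60.4 and 211 CPM with GFP and 6.14 and 49.6 CPM with A315T, so that both A315T libraries lay below both GFP libraries, and it showed the largest decrease of the family, 5.29-fold (log2 fold change -2.40 ± 0.24, edgeR adjusted p = 3.24e-06). The 2 scarcer copies also fell. Gm23287 decreased 3.14-fold from 28.03 and 208 CPM to 7.90 and 66.8 CPM, and Gm22265 3.44-fold from 15.1 and 60.2 CPM to 6.14 and 13.4 CPM (edgeR adjusted p = 0.000108 and 0.0409). Gm22265 rested on 7 counts in each A315T library and lost its call without replicate 2 of either group (edgeR adjusted p up to 1.0), and Gm23287 lost it without GFP replicate 2 (edgeR adjusted p = 0.196). All 5 copies had negative fold changes in each alternative fit in which they were tested, with a median between -2.18 and -1.94. In every copy and on both dates the hTDP-43 culture lay between GFP and A315T; Gm25313, for example, stood at 173 and 1273 CPM there.

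Of the 3 other snRNA genes tested, none of which held the U5 loop, Rnu12 moved the other way. Rnu12 encodes U12, which recognises the branch site in introns of the minor spliceosome. It stood at 1140 and 409 CPM with GFP and at 1784 and 1328 CPM with A315T, without overlap, an increase of 2.2-fold (log2 fold change 1.14 ± 0.15, edgeR adjusted p = 0.000142). The call of Rnu12 was lost without A315T replicate 2 and with DESeq2. It was also lost without the filter (edgeR adjusted p = 0.127) and in the robust edgeR fit (adjusted p = 0.808). The remaining pair did not pass, with log2 fold changes of 1.16 for Gm26254 and -0.18 for Gm22710 (edgeR adjusted p = 0.21 and 0.848). Counts left after the removal of non-coding RNA reads also rose for several RNA polymerase III transcripts. Rny3 and Rny1, the Y RNAs that bind Ro60 and La, rose 1.74-fold and 1.62-fold, and Rn7s6, a locus of the 7SL RNA family of the signal recognition particle, rose 1.69-fold. The groups did not overlap in any of these 3 genes, of which Rny3 lost its call without A315T replicate 2 and the others without replicate 2 of either group. Rpph1, the RNA subunit of RNase P that cuts the leader from tRNA precursors, rose 1.97-fold (a call lost without replicate 1 of either group), whereas its relative Rmrp had a log2 fold change of 0.61 that did not pass (edgeR adjusted p = 0.433). Rny3, Rny1, Rn7s6 and Rpph1 were called neither with DESeq2 nor without the filter. The 7SK RNA Rn7sk, which restrains transcription elongation, had a log2 fold change of 0.07 (edgeR adjusted p = 0.922), and the vault RNA Vaultrc5 one of 0.01 (edgeR adjusted p = 0.998). Ssb, which encodes the La protein, was lower in A315T footprints, with 233 and 213 CPM against 171 and 124 CPM and no overlap (log2 fold change -0.55, edgeR adjusted p = 0.0444). Ssb also fell in total mRNA (log2 fold change -0.80, edgeR adjusted p = 0.0218). Its footprint call was lost when any of 3 libraries (GFP replicate 1, GFP replicate 2 or A315T replicate 2) was left out.

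**Figure D2:**
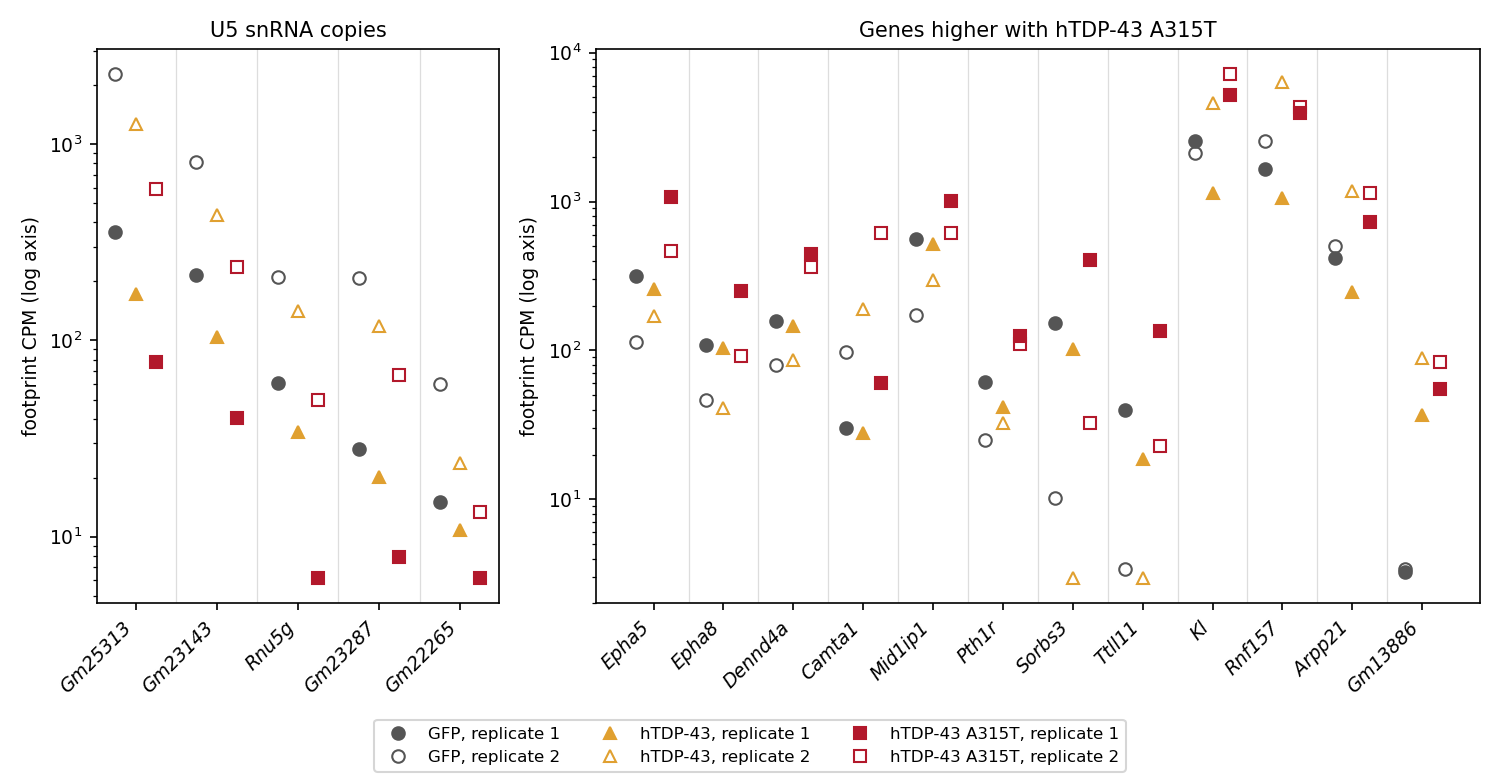
Footprint CPM (log axis) of the U5 snRNA copies (left) and of 12 genes that were higher with A315T (right), with 1 point for each library, filled for replicate 1 and open for replicate 2. Within a replicate, every U5 copy declines from GFP over hTDP-43 to A315T, whereas hTDP-43 lies near GFP for Epha5, Dennd4a and Pth1r and near A315T for Gm13886.

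The largest increase belonged to Gm13886, a processed pseudogene of Tardbp on chromosome 2. Its 1183 bases were 93.9% identical to mouse Tardbp over 1202 aligned columns. A run of 30 bases of each is shown where both align without a gap within a coding exon of Tardbp, and capitals mark the 3 positions at which they differ.
Gm13886 (chr2:104820231-104820260, plus strand): agtttccaggggcatgTggcctgTgctacT
Tardbp (chr4:148625233-148625262, minus strand): agtttccaggggcatgCggcctgCgctacC
Gm13886 had 3 footprint counts in each GFP library and 63 and 44 in the A315T libraries. The ratio to GFP, from counts and library totals alone, was 16.2 (95% interval 5.30 to 80.7) in replicate 1 and 23.9 (7.65 to 120) in replicate 2, intervals that cover counting error only. The fitted log2 fold change was 4.34 ± 0.39 (edgeR adjusted p = 7.92e-07). With hTDP-43, Gm13886 had 24 and 30 counts, ratios of 11.9 (3.62 to 61.8) and 25.5 (7.94 to 131), and the direct comparison of A315T with hTDP-43 gave a log2 fold change of 0.24 (edgeR adjusted p = 0.998). In total mRNA it was listed at 0 and 2.12 CPM with GFP and at 101 and 91.7 CPM with A315T. The transfected human coding sequence is not in the mouse genome to which the reads were aligned, and its similarity to Gm13886 was not tested. Tardbp itself stood at 330 and 303 footprint CPM with GFP and at 412 and 389 CPM with A315T, without overlap, a difference that did not pass in footprints (log2 fold change 0.35 ± 0.10, edgeR adjusted p = 0.189). In total mRNA Tardbp rose by a log2 fold change of 0.71 (edgeR adjusted p = 1.13e-05). Mouse and human TDP-43 reads cannot be told apart in these counts.

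Receptors and a co-receptor, brought together after their values had been seen, are described first among the protein-coding genes that rose. Epha5, a receptor tyrosine kinase for ephrin-A ligands that guides axons, had 314 and 115 CPM with GFP and 1076 and 464 CPM with A315T. Both A315T libraries lay above both GFP libraries, and the increase was 3.67-fold (log2 fold change 1.88 ± 0.11, edgeR adjusted p = 5.79e-10). Its relative Epha8 rose 2.21-fold, from 109 and 46.6 CPM to 249 and 91.6 CPM (log2 fold change 1.15 ± 0.15, edgeR adjusted p = 8.25e-05). The values of Epha8 overlapped across dates, and its call was lost without replicate 1 of either group (edgeR adjusted p up to 0.129). The other Eph receptor tested, Ephb4, had a log2 fold change of 1.08 at 10.6 CPM that did not pass (edgeR adjusted p = 0.648), and the ephrins Efna2, Efna5 and Efnb1 lay between -0.08 and 0.48. Pth1r, the G protein-coupled receptor for parathyroid hormone and its related peptide, rose 2.66-fold, from 61.5 and 25 CPM to 126 and 111 CPM without overlap (log2 fold change 1.41 ± 0.22, edgeR adjusted p = 0.000747). Kl encodes Klotho, a co-receptor for the hormone FGF23. It stood at 2539 and 2114 CPM with GFP and at 5195 and 7135 CPM with A315T, a rise of 2.66-fold without overlap (log2 fold change 1.41 ± 0.13, edgeR adjusted p = 1.07e-06). The call of Kl was lost in 1 fit over all 3 groups with every library kept (edgeR adjusted p = 0.0669), and again without GFP replicate 2. Epha5 and Pth1r stayed past the threshold when any 1 of the 4 libraries was left out. Epha5 was also called by DESeq2 and without the filter, but Pth1r was not (adjusted p = 0.135 with DESeq2 and 0.145 with edgeR without the filter).

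Intracellular signalling genes that rose had diverse roles. Dennd4a, which activates Rab10 by nucleotide exchange in vesicle traffic, had 157 and 79.6 CPM with GFP and 445 and 362 CPM with A315T, without overlap. Its increase was 3.43-fold (log2 fold change 1.78 ± 0.14, edgeR adjusted p = 6.85e-08), while its relative Dennd4c had a log2 fold change of 0.11 (edgeR adjusted p = 0.964). Camta1, a calmodulin-binding transcription activator, had 30.2 and 97.7 CPM with GFP and 60.6 and 618 CPM with A315T. The difference of Camta1 was thus much larger in replicate 2 than in replicate 1, and the A315T library of replicate 1 lay below the GFP library of replicate 2. Its increase was 4.96-fold (log2 fold change 2.31 ± 0.21, edgeR adjusted p = 7.92e-07), lost without GFP replicate 2 (edgeR adjusted p = 0.0731), with DESeq2 (adjusted p = 1.0) and in the robust edgeR fit (adjusted p = 0.185), and Camta2 had a log2 fold change of 0.20 (edgeR adjusted p = 0.934). Mid1ip1, which promotes polymerisation of acetyl-CoA carboxylase in fatty acid synthesis and binds the microtubule protein Mid1, rose 2.39-fold, from 560 and 172 CPM to 1016 and 614 CPM without overlap (log2 fold change 1.26 ± 0.15, edgeR adjusted p = 2.12e-05). Pip5kl1, a relative of the kinases that make phosphatidylinositol 4,5-bisphosphate, rose 2.25-fold from 57.1 and 72.7 CPM to 108 and 189 CPM. Net1, an exchange factor for RhoA, rose 2.09-fold without overlap. Cybb, the catalytic subunit of the phagocyte NADPH oxidase, had 325 and 87.5 CPM with GFP and 605 and 250 CPM with A315T, an increase of 2.14-fold with overlap across dates. Dennd4a and Mid1ip1 were called in all 4 fits that omitted a library, but Mid1ip1 lost its call in the robust edgeR fit (adjusted p = 0.722), where Dennd4a kept it. By contrast Pip5kl1 and Cybb lost their calls without GFP replicate 2 and Net1 without replicate 2 of either group.

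Genes of the cytoskeleton, of adhesion and of RNA biology made up most of the remaining increases. Sorbs3, the focal adhesion protein vinexin, had 152 and 10.2 CPM with GFP and 405 and 32.4 CPM with A315T, so that the dates differed far more than the groups, and its call required replicate 1 of both groups. Ttll11, which adds glutamate chains to tubulin, showed the same shape at 39.9 and 3.41 CPM against 134 and 22.9 CPM, and in replicate 2 it rested on 3 counts with GFP. Tspan5, a tetraspanin that directs the protease ADAM10, rose 3.15-fold from 64.7 and 10.2 CPM to 161 and 78.2 CPM without overlap. Sspo, a matrix glycoprotein known as SCO-spondin, rose 1.81-fold, a call lost without replicate 2 of either group. Arpp21, an RNA-binding phosphoprotein of neurons, had 420 and 503 CPM with GFP and 727 and 1141 CPM with A315T, a 2.00-fold rise without overlap. Adarb2, a brain protein related to the adenosine deaminases that edit RNA, rose 2.28-fold, while its relatives Adarb1 and Adar had log2 fold changes of 0.07 and -0.04 that did not pass. Zfp36, which binds AU-rich elements and hastens mRNA decay, had 48.5 and 50.0 CPM with GFP and 78.1 and 200.3 CPM with A315T, a 2.66-fold rise without overlap that was lost without GFP replicate 2. Zfp36l2 had a log2 fold change of 0.39 that did not pass (edgeR adjusted p = 0.17). Rnf157, a ubiquitin ligase of neurons, rose 2.04-fold, from 1650 and 2539 CPM to 3953 and 4304 CPM, again without overlap, and lost its call without A315T replicate 1. The call of Arpp21 was lost without A315T replicate 1 or GFP replicate 2. Tspan5 and Adarb2 were called in all 4 fits that omitted a library, and so was D630039A03Rik, at 1187 and 34.1 CPM against 2015.33 and 423.5 CPM. All 3 lost their calls without the filter (edgeR adjusted p = 0.105, 0.175 and 0.873), Tspan5 and D630039A03Rik also with DESeq2 (adjusted p = 0.758 and 1.0), and Adarb2 and D630039A03Rik in the robust edgeR fit (adjusted p = 0.32 and 0.877).

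The highest footprint counts of all protein-coding genes belonged to Yipf1, Dact3 and Actb. Yipf1, a Golgi membrane protein, had 65055 and 15917 CPM with GFP and 88988 and 56348 CPM with A315T, an increase of 2.23-fold (edgeR adjusted p = 0.00261) with overlap across dates. The call of Yipf1 was lost without replicate 2 of either group and with DESeq2. It was also lost without the filter (edgeR adjusted p = 0.308) and in the robust edgeR fit (adjusted p = 0.819). Dact3, an antagonist of Wnt signalling, rose 1.55-fold from 5185 and 16133 CPM to 6386 and 30751 CPM (edgeR adjusted p = 0.0175), a call lost without any of 3 libraries (A315T replicate 1, GFP replicate 2 or A315T replicate 2). Actb, the cytoplasmic beta actin, had a log2 fold change of 0.15 that did not pass (edgeR adjusted p = 0.764). The antisense RNA Gm14236 reached similar heights, with 41427 and 15444 CPM against 71601 and 29958 CPM, an increase of 1.85-fold called in all 4 fits that omitted a library. Exons of the protein-coding genes were searched for stretches like tRNA genes of the RefSeq annotation, with a minimum of 30 aligned bases at 90% identity chosen after shorter matches had been seen. Such a stretch was present in 2 of the 29 risen genes (6.9%), Yipf1 and Ttyh1, and in 17 of 8542 genes searched (0.199%). With a minimum of 22 bases the numbers were 5 of 29 (17.2%) and 726 of 8542 (8.5%). Ttyh1, a membrane protein of neural cells, rose 1.42-fold in footprints while the fit gave a decrease in total mRNA (log2 fold change -0.65, edgeR adjusted p = 0.0427). That decrease came from replicate 2, at 145 CPM with GFP and 63.1 CPM with A315T, whereas replicate 1 gave 53.9 and 58.4 CPM. The footprint call of Ttyh1 was lost without any of 3 libraries (GFP replicate 1, GFP replicate 2 or A315T replicate 2). The run of Ttyh1 is shown because it lies in the transcript regions counted for this gene, in an exon of a retained intron transcript, with capitals for bases that match.
Ttyh1 (chr7:4131909-4131938, plus strand): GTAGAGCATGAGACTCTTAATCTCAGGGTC
tRNA gene n-TKctt15 (chr3:96428253-96428282, plus strand): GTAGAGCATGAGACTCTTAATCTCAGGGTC
The full alignment covered 55 bases at 94.5% identity. How many footprint reads of Yipf1 and Ttyh1 fall on such stretches is not given by counts per gene, and their part in the increase was not tested.

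A pair of loci annotated as miRNA hairpins also rose, Gm24270 by 2.58-fold and Gm23935 by 1.43-fold. They are identical over all 57 bases, of which the first 30 are printed because they read the same at both loci.
Gm24270 (chr9:56223742-56223771, minus strand): cgtcgggaccggggtccggtgcggagagcc
Gm24270 had 43.1 and 44.3 CPM with GFP and 75.5 and 160 CPM with A315T, and Gm23935 had 810 and 519 CPM with GFP and 1189 and 702 CPM with A315T. In total mRNA with GFP, Gm24270 had 7.32 and 22.9 CPM and Gm23935 had 2770 and 7074 CPM. Reads that lie wholly within the identical bases cannot be assigned to either locus by sequence, and what set the unequal counts was not tested. The bases were compared between this pair of loci only and were not searched for in other genes, so whether the reads came from miRNA was not tested. Gm24270 lost its call without replicate 2 of either group and Gm23935 without GFP replicate 1 or A315T replicate 2. Gm23935 was also higher in total mRNA (log2 fold change 0.89, edgeR adjusted p = 3.95e-05).

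The protein-coding genes that fell were few and their changes modest. They were Lars2, E2f5, Rpl7, Ptma, mt-Cytb and Ssb, with decreases between 1.41-fold for Rpl7 and 1.57-fold for E2f5. Lars2, the leucyl-tRNA synthetase of mitochondria, went from 10326 and 7132 CPM to 5921 and 5164 CPM without overlap, a 1.53-fold decrease. In total mRNA Lars2 had the most counts of any gene in each library, at 63691 to 73129 CPM with GFP or A315T, and did not pass the test (log2 fold change 0.12, edgeR adjusted p = 0.497). Its footprint CPM was 0.133 of its total mRNA CPM in GFP cultures. Counts per gene do not show where in Lars2 these reads lie, and whether they came from its mRNA was not tested. The unnamed gene ENSMUSG00000089855 and the unclassified transcript AA474408 had a like profile: their footprint CPM was 0.114 and 0.142 of their total mRNA CPM in GFP cultures, and they fell 1.66-fold and 1.83-fold in footprints without overlap. Lars2, ENSMUSG00000089855 and AA474408 all lost their calls without A315T replicate 1 or GFP replicate 2. Rpl7, a protein of the large ribosomal subunit, went from 702 and 626 CPM to 542 and 387 CPM, and Ptma, the acidic nuclear protein prothymosin alpha, from 389 and 367 CPM to 284 and 235 CPM, both without overlap. Rpl7 was called in 1 and Ptma in 0 of the 4 fits that omitted a library. E2f5, a repressor of cell cycle genes, differed by date more than by group, at 57.1 and 934 CPM against 42.1 and 563 CPM, and its direction turned without A315T replicate 2 (log2 fold change 0.22). The unclassified transcript Gm37194 had 4391 and 42581 CPM with GFP and 2322 and 7108 CPM with A315T, a 3.34-fold decrease lost without A315T replicate 2 (edgeR adjusted p = 0.0974). CT010467.1, a locus annotated as rRNA, fell 1.54-fold in footprints and rose in total mRNA (log2 fold change 0.57, edgeR adjusted p = 0.0107). The rise in total mRNA came mainly from replicate 1, at 9133 CPM with GFP and 19753 CPM with A315T, against 21858 and 22952 CPM in replicate 2. The fall in footprints was larger in replicate 2, from 10724 to 5187 CPM, than in replicate 1, from 3264 to 2794 CPM. The footprint call of CT010467.1 was lost without replicate 2 of either group.

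Of the mitochondrially encoded proteins 8 were tested in footprints and 1 fell. All 8 had negative log2 fold changes, with a median of -0.60 against 0.003 over all genes, and in 7 of them both A315T libraries lay below both GFP libraries, an arrangement found in 16.7% of all genes. The called member was mt-Cytb, the cytochrome b of complex III, from 425 and 682 CPM to 351 and 330 CPM (log2 fold change -0.61, edgeR adjusted p = 0.0220), and it lost its call without replicate 2 of either group. No member was called with DESeq2, without the block, without the filter or in 1 fit over all 3 groups. The cytochrome oxidase subunit mt-Co1 had a log2 fold change of -0.58 (edgeR adjusted p = 0.0545), and the complex I subunits mt-Nd1, mt-Nd2, mt-Nd4 and mt-Nd5 lay between -0.62 and -0.42 without passing. In total mRNA the median of the list was -0.31 and 2 of 9 tested members fell. The size of the decrease rested on replicate 2, for the median was -0.91 without GFP replicate 1 and -0.90 without A315T replicate 1, but -0.33 without GFP replicate 2 and -0.37 without A315T replicate 2, and without GFP replicate 2 the sign was negative in 7 of the 8 genes. These mRNAs are translated inside mitochondria by ribosomes that cycloheximide does not arrest. Reads on mitochondrial genes made up 0.157% and 0.216% of the GFP footprint libraries and 0.122% and 0.101% of the A315T libraries. The 76 tested respiratory chain subunits encoded in the nucleus had a median of 0.01 with none called, whereas 14 of 75 were lower in total mRNA, against 1.68% of all genes. Those calls in total mRNA rest on edgeR with the block, as neither DESeq2 nor edgeR without the block called any gene lower there.

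The changed genes were compared with all genes in how their footprints related to their mRNA and in how they varied between dates. In GFP cultures 23 of the 54 genes (42.6%) had more than 8-fold higher CPM in footprints than in total mRNA, compared with 108 of 8659 (1.25%). The median of log2 footprint minus log2 total CPM was 2.34 for the 39 higher genes, 2.18 for the 15 lower genes and -0.17 over all genes. Protein-coding genes shared in this, for 12 of the 29 that rose (41.4%) exceeded 8-fold, against 77 of 8545 (0.901%). Epha5 was 21.2-fold, Kl 19.7-fold, Rnf157 22.6-fold, Arpp21 26.6-fold and Yipf1 34.2-fold more abundant in footprints. By contrast Dennd4a was at 1.02-fold and Camta1 at 1.4-fold. The absolute log2 difference between the GFP libraries of both dates had a median of 1.10 in the higher genes, 1.72 in the lower genes and 0.27 over all genes, and it exceeded 1 in 29 of the 54 genes (53.7%) against 5.15% of all genes. Both cut-offs were chosen after the values had been seen. Since footprints were not poly(A) selected and total mRNA was, and since high counts make a given change easier to call, what sets these genes apart was not tested.

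**Figure D3:**
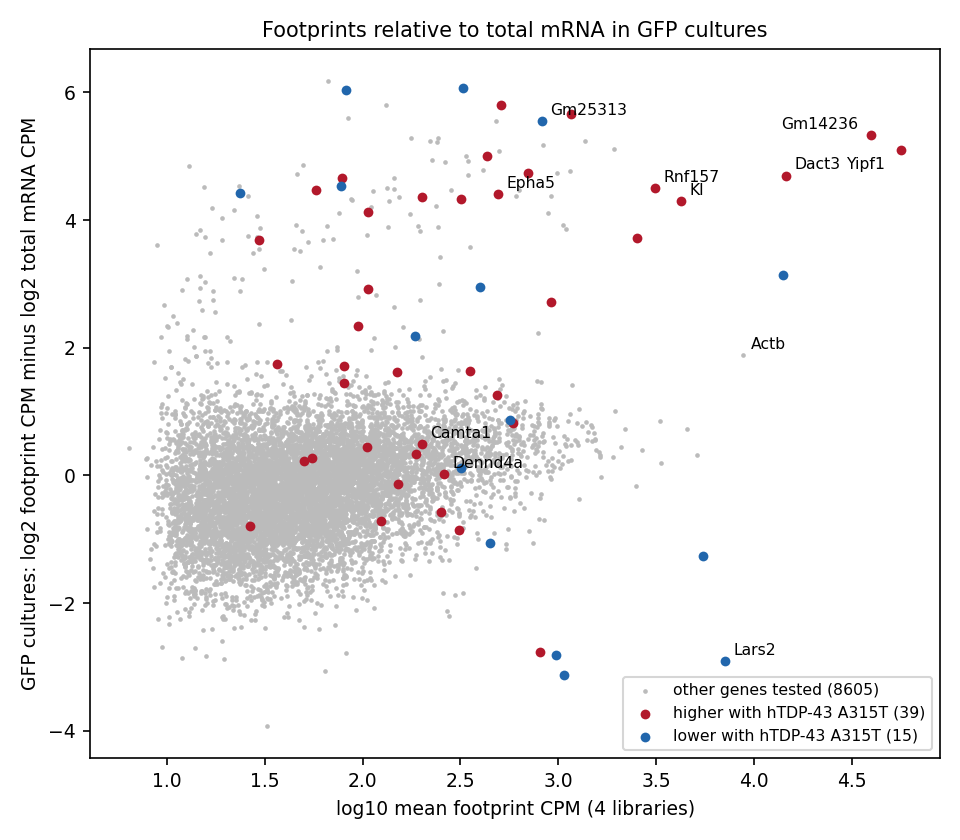
Log2 footprint CPM minus log2 total mRNA CPM in GFP cultures (vertical axis) against the log10 of the mean footprint CPM over 4 libraries (horizontal axis), with each point a gene. Many genes that were higher (red) or lower (blue) with A315T lie above 3, an 8-fold excess of footprints, where 1.25% of all genes lie, whereas Dennd4a and Camta1 lie within the main cloud.

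In total mRNA of the same cultures 283 of 10361 genes (2.73%) were called by edgeR with the block, 109 (1.05%) higher and 174 (1.68%) lower, and 1782 (17.2%) had an unadjusted p below 0.05. This count depended on the setting: DESeq2 with the block called 3 genes, edgeR without the block 1, and leaving out GFP replicate 1, GFP replicate 2, A315T replicate 1 or A315T replicate 2 gave 63, 78, 262 and 940. Whether more genes changed in total mRNA than in footprints therefore turned with the tool, as DESeq2 called 14 in footprints. Of the 54 genes with changed footprints 48 were tested there, and 13 were called, 9 higher and 4 lower. Higher in both were Dennd4a, Gm13886, Kl, Rnf157, Gm14236, Epha8, Gm23935 and Dact3. Lower in both were Ptma, mt-Cytb and Ssb, whereas Ttyh1 and CT010467.1 had fitted changes of opposite sign in footprints and total mRNA. In total mRNA the change of Ttyh1 came from replicate 2 and that of CT010467.1 mainly from replicate 1. Mid1ip1 and Pth1r had log2 fold changes of 0.18 and 0.65 in total mRNA that did not pass (edgeR adjusted p = 0.382 and 0.204). Rnf157 changed at least as much in total mRNA (log2 fold change 1.26) as in footprints (1.03). A direct test of the difference between footprints and total mRNA, as an interaction over 8 libraries, called 2 of 10081 genes (0.0198%), with 477 (4.73%) at an unadjusted p below 0.05. They were Camta1, with an excess in footprints of 2.06 ± 0.28 on the log2 scale (edgeR adjusted p = 0.000395), and Dennd4a, with 1.28 ± 0.22 (edgeR adjusted p = 0.0161). Neither was called without the culture block, with DESeq2, or without A315T replicate 1, GFP replicate 2 or A315T replicate 2, and 1 of them was called with DESeq2's size factors. Both were among 22 genes called without GFP replicate 1 and among 15 without the filter. The U5 copy Gm25313 came next among the changed genes, at -1.58 ± 0.31 (edgeR adjusted p = 0.0558). The interaction values of Epha5 and Kl, 0.91 and 0.46, did not pass (edgeR adjusted p = 0.982 for each).

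**Figure D4:**
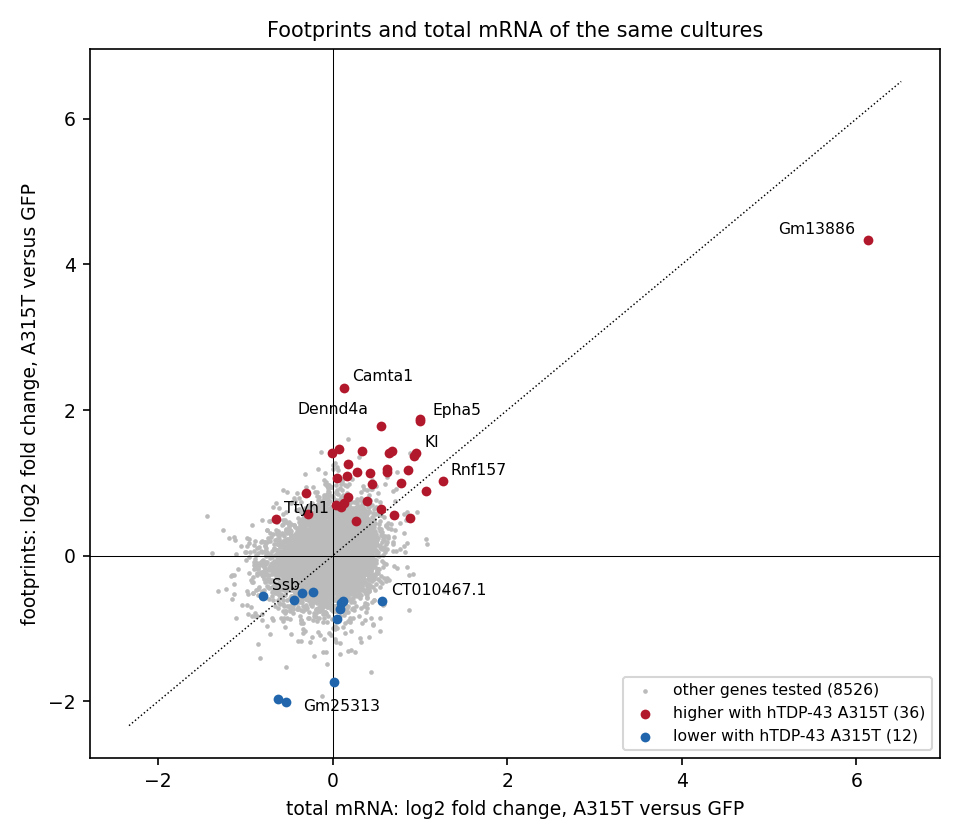
Log2 fold change of A315T against GFP in total mRNA (horizontal axis) and in footprints (vertical axis) for genes tested in both, with the dotted line marking equal change. Camta1 and Dennd4a lie furthest above the line among the labelled genes, Rnf157 and Gm13886 lie below it, and Ttyh1 and CT010467.1 lie in quadrants of opposite sign.

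Cultures with unmutated hTDP-43 allow the values to be set side by side, with the reservation that the comparisons share the GFP or the A315T libraries. The hTDP-43 footprint libraries were the shallowest on each date, with 631354 and 332370 reads assigned to genes (replicates 1 and 2). There 3 counts stood for 4.75 and 9.03 CPM, so changes were harder to call and the numbers of calls are not directly comparable. Dennd4a had 95 and 29 counts in these libraries, and Pth1r had 27 and 11. The direct comparison of A315T with hTDP-43 called 54 of 7653 genes (0.706%), 36 (0.47%) higher and 18 (0.235%) lower with A315T, with 436 (5.7%) at an unadjusted p below 0.05. That of hTDP-43 with GFP called 13 of 8334 (0.156%), 9 (0.108%) higher and 4 (0.048%) lower with hTDP-43, with 320 (3.84%) at an unadjusted p below 0.05. Of the 39 genes that were higher in A315T than in GFP, 25 were also higher in A315T than in hTDP-43 and 1, Crx, was lower. Of the 14 lower genes that could be tested, 8 were lower. Epha5 stood at 260 and 171 CPM with hTDP-43, and its log2 fold change was 1.79 for A315T against hTDP-43 and 0.04 for hTDP-43 against GFP. For Dennd4a, at 147 and 85.6 CPM with hTDP-43, the values were 1.75 and -0.002, and for Pth1r 1.63 and -0.25. Camta1 was at 27.9 and 189 CPM with hTDP-43, with log2 fold changes of 1.54 and 0.69, the latter not called (edgeR adjusted p = 0.907). Against GFP, hTDP-43 changed 5 of the 54 genes: Gm25313, Gm23143 and Jmjd6 were lower, and Gm13886 and Crx higher. Crx, a homeobox transcription factor of photoreceptors, owed this to a single library, since it had 15.5 and 508 CPM with hTDP-43 against 20.5 and 35.2 CPM with GFP and 33.4 and 143 CPM with A315T. Without GFP replicate 2 the sign for A315T against GFP turned (log2 fold change -0.12). Jmjd6, an arginine demethylase and lysyl hydroxylase of splicing factors, was 1.66-fold higher with A315T and 1.62-fold lower with hTDP-43 than with GFP, and the former call was lost without replicate 1 of either group.

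Lists of genes by function showed few changes in footprints. Of the lists described here the integrated stress response, the unfolded protein response, heat shock, oxidative stress, p53 and interferon lists had no called member, and their medians lay between -0.11 for heat shock proteins and 0.15 for interferon-stimulated genes. Immediate-early genes had 1 called of 23, Zfp36. Among 83 cytosolic ribosomal proteins 1 fell (Rpl7), with a median of -0.05, while 28 of 83 fell in total mRNA, where the median was -0.32 and 1.68% of all genes were lower. Neither DESeq2 nor edgeR without the block called any gene lower in total mRNA, so the calls of the lists there rest on edgeR with the block. Splicing factors of the hnRNP and SR families had none of 43 called and a median of -0.08, against 5 lower and 1 higher in total mRNA. Known RNA targets of TDP-43 had none of 26 called and a median of 0.02, and other genes of amyotrophic lateral sclerosis and frontotemporal dementia none of 33 and 0.05. Tubulins and microtubule-associated proteins had 1 of 33 called, Mid1ip1, which was also the sole call among 22 genes of fatty acid synthesis. The motor protein gene Kif5b, in the microtubule list, had an edgeR adjusted p of 0.0845. In the lists built around Dennd4a, Camta1, Pth1r and Pip5kl1, that gene was the sole call among 14 DENN domain proteins, 25 genes of calcium signalling, 19 genes of cAMP signalling and 22 phosphoinositide enzymes. In the cAMP list both A315T libraries lay above both GFP libraries in 5 of 19 members, Pth1r among them, with a median of 0.20. The same arrangement was found in 14.0% of all genes. Collagens and matrix genes had 1 of 13 called, Sspo, and a median of 0.21. Cell cycle genes had 1 of 50 called, E2f5, and axon guidance, synaptic vesicle and ion channel genes none of 23, 33 and 13, with Epha5 and Epha8 not part of the axon guidance list.

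**Figure D5:**
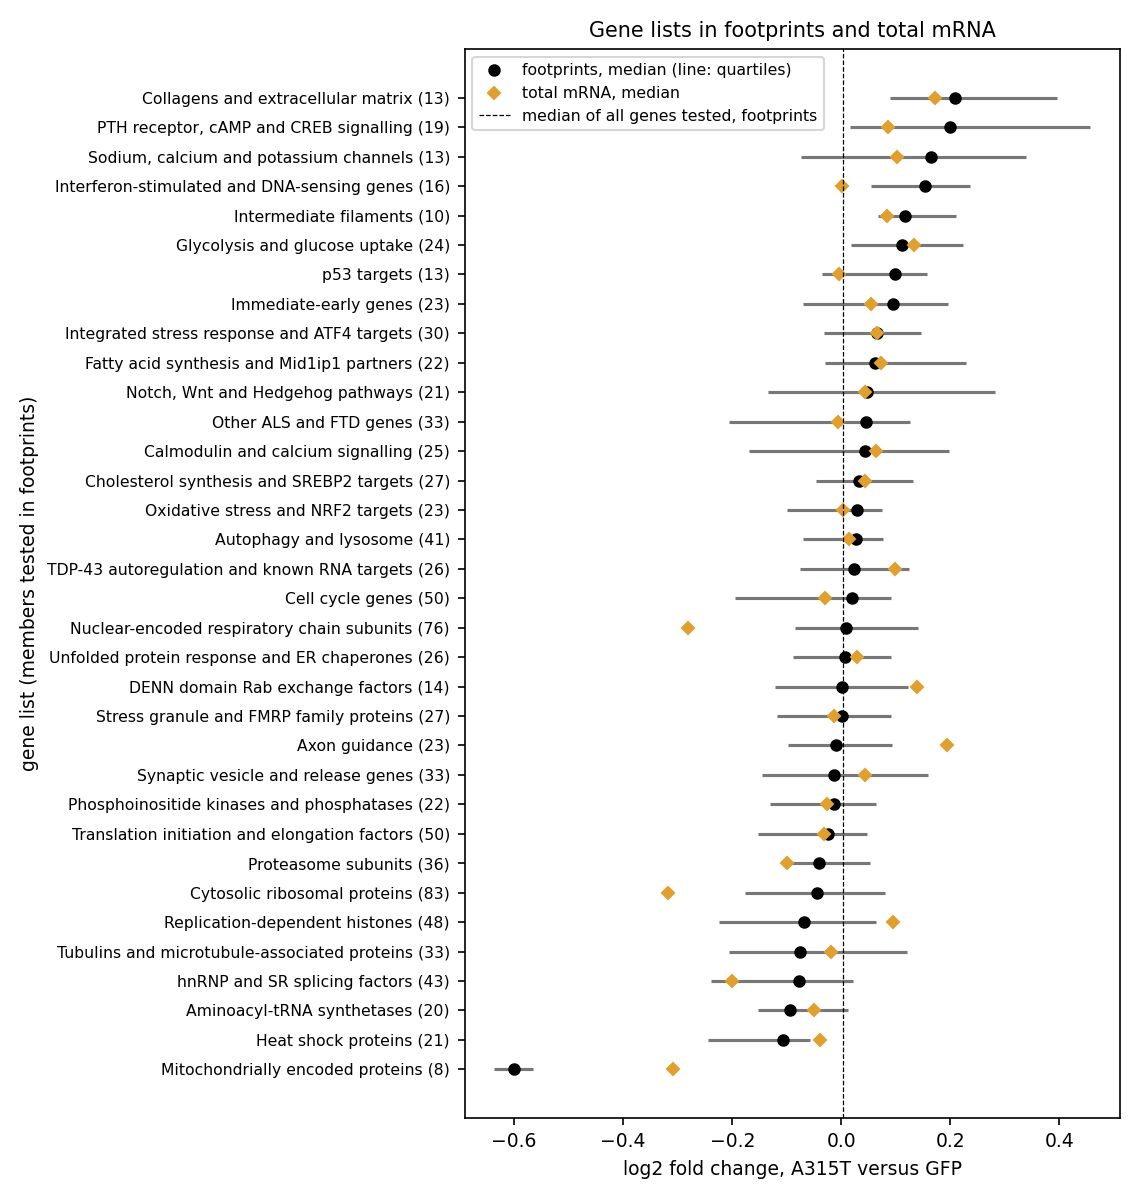
Median log2 fold change of A315T against GFP for each gene list, in footprints (black, with a line for the quartiles) and in total mRNA (yellow), with the number of members tested in brackets and the dashed line at the median of all genes in footprints. Mitochondrially encoded proteins lie lowest at -0.60, and ribosomal proteins and nuclear respiratory chain subunits lie near 0 in footprints but near -0.3 in total mRNA.

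Because TDP-43 binds UG repeats, the exons of the protein-coding genes were searched on the sense strand for 12 bases of alternating T and G. The repeat was present in 4 of the 29 genes that rose (13.8%), Epha5, Rnf157, Tspan5 and Net1, in none of the 6 that fell, and in 1003 of 8542 genes searched (11.7%). Exons were longer in the genes that rose, with a median of 5114 bases against 4137 over all genes and 1979.5 in the genes that fell. The repeats were found in exon sequence of the genome, and binding was not measured.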

How the data were processed

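Footprint and total mRNA libraries of MN1 cells were analysed from raw read counts per gene that the authors deposited, which were neither normalized nor pooled. Per the labels and the study's methods, adapters were clipped with cutadapt 1.8.1, reads that Bowtie2 placed on annotated non-coding RNA were removed, TopHat2 aligned the rest to GRCm38, and featureCounts 1.4.4 counted reads on exons of an Ensembl annotation without regard to strand, leaving out reads that overlap several genes. Overlapping, antisense and near-identical genes are therefore uncertain, and reads on UTRs count. Counts on non-coding RNA genes are the reads left after the removal, and which annotated RNAs it covered was not established. Each table listed 45513 genes, of which 44671 were matched to GENCODE M21 for symbols and biotypes.

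Groups followed the sample labels. Libraries of a replicate number share a day and month in the labels. The label of GFP footprint replicate 1 gives another year, which was taken as the same culture. Deviations of same-numbered libraries from their group means correlated across genes with r = 0.386 in footprints and 0.395 in total mRNA, and the dates come from the labels. Counts were fitted in R 4.3.3 with edgeR 4.0.16 (filterByExpr with minimum count 10 and total 15, TMM scaling, quasi-likelihood test, replicate number as a block, Benjamini-Hochberg adjustment over all genes tested, threshold 0.05), on the libraries of the compared groups only. The study used DESeq and stated no block. Translational efficiency was the interaction of library type and group with culture as a block. Standard errors were derived from the size of the log2 fold change and the root of its F statistic. They rest on spread shared among genes and do not measure the difference between dates of a single gene. CPM are on the TMM scale over the 6 MN1 libraries of a type, with 0.5 added before logarithms of within-replicate differences. Ratios of counts have exact 95% binomial intervals that cover counting error only, and 3 counts were taken as the floor. The scripts were tested on simulated data with known changes. Sequences came from the RefSeq copy of GRCm38. For each function list, members past the threshold and otherwise up to 2 with the smallest p could be named. Of the changed genes, the 20 higher and 12 lower with the smallest p were named, and further genes were named where a class or pattern is described, after their values had been seen. The comparison, the gene lists and the named genes were chosen with earlier results of these data known. Alternatives were no block, DESeq2's size factors, no filter, DESeq2 1.42.0, all 3 groups in 1 fit, leaving out each library, protein-coding genes only, a robust fit and a fold threshold.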

Additional observations from a re-analysis of the deposited data

How the results depend on the processing

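The limits are the 2 libraries for each group, 1 residual degree of freedom, and the shallow A315T library of replicate 2, in which genes under 5.75 CPM were not measurable. In the hTDP-43 footprint library of replicate 2, which was shallower still, that floor was 9.03 CPM. Same-numbered libraries were paired by date, and the pairing decides the number of calls. Without the replicate block, 1 gene was called in footprints of A315T against GFP in place of 54, 1 in total mRNA in place of 283, 0 in the interaction in place of 2, and 0 in the comparisons of A315T with hTDP-43 and of hTDP-43 with GFP in place of 54 and 13. At an unadjusted p below 0.05, edgeR without the block still had 220, 179 and 115 genes in these last 3 comparisons. With DESeq2 and the block the numbers were, in the same order, 14, 3, 0, 1 and 1, and DESeq2 had 32 genes at an unadjusted p below 0.05 in the interaction. Without a filter on low counts they were 20, 134, 15, 60 and 21, with more genes tested. With DESeq2's size factors they were 63, 239, 1, 56 and 6. In 1 fit over all 3 groups they were 29 in footprints of A315T against GFP, 112 in total mRNA, 25 against hTDP-43 and 6 for hTDP-43 against GFP. A fold threshold of 2 kept 31 of the 54 genes. Protein-coding genes alone gave 72 calls and a robust fit 55, of which 43 were among the 54.

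Leaving out each library in turn, in the fit over all 3 groups with the lone library assumed to vary like the others, gave 27 calls (without GFP replicate 2) to 61 (without A315T replicate 1) in footprints of A315T against GFP, and 63 and 78 (without GFP replicate 1 and 2) to 940 (without A315T replicate 2) in total mRNA. The interaction had 22 calls without GFP replicate 1 and 0 without any other culture, where 397, 444 and 240 genes had an unadjusted p below 0.05. A315T against hTDP-43 gave 39 to 63 calls, and hTDP-43 against GFP 7 (without GFP replicate 2) to 37 (without hTDP-43 replicate 1). Of the 54 genes 53 lost their call without the block, 34 without the filter and 40 with DESeq2, in each case with the direction kept. The direction turned in 2 of the 54 genes when a library was left out: Crx at -0.12 without GFP replicate 2 and E2f5 at 0.22 without A315T replicate 2 (log2 fold changes). Among the named genes that were not called, signs turned for Cnp at -0.12 without the block and from -0.46 to -0.14 without a library of replicate 1, Lrp5 at -0.19 and Ret at -0.043 without GFP replicate 1, Stim1 at -0.082 without GFP replicate 2, Fgfr3 from -0.56 to -0.16 and Myh3 from -0.063 to -0.042 without a library of replicate 2, and Hcn2 at -0.026 without A315T replicate 2. The cause was not tested.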
